A study of Mus musculus with 18 samples.

Results

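The 41 genes described here are a listed module for neurite outgrowth and axon growth, among 18194 genes that have at least 1 probe set naming no other gene. They were taken by name, grouped by role, and each was read from its single-gene probe set with the highest mean. A total of 36 of the 41 passed a filter on low values that left 11630 genes for testing. Ntn1, Unc5c, Unc5d, Robo2 and Rtn4r did not pass it and are given as levels only.

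The cells were microglia, the resident macrophages of the brain, sorted as Cx3cr1-GFP+ cells from pooled hippocampi of C57BL/6 mouse embryos at E17.5. Each of 18 Affymetrix arrays carried the RNA pooled per pregnant dam, and the embryos' gender was labelled unknown. The series asked how maternal inflammation and the loss of DAP12 alter these cells.

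LPS (4 arrays) stands for embryos of dams given lipopolysaccharide, a bacterial endotoxin, and PBS (4 arrays) for embryos of dams given phosphate-buffered saline. DAP12KO (4 arrays) stands for untreated DAP12-/- embryos, and UT (6 arrays) for untreated wild-type embryos. DAP12 is the adaptor, encoded by Tyrobp, that passes on signals of receptors such as TREM2. Each array name also ends in a year, here numbered 1 to 4 in order: year 1 as in PBS4_2008, year 2 as in PBS1_2010, year 3 as in UT3_2012 and year 4 as in DAP12KO-1_2013. For LPS and for PBS, 1 array is of year 1, 2 are of year 2 and 1 is of year 4. All DAP12KO arrays and 4 UT arrays are of year 4, and 2 UT arrays are of year 3. The labels do not say what the year marks. The LPS array of year 4 is named LPS-3_2_2013, and its relation to LPS3_2008 is not stated. That the arrays come from separate dams is the reading of the design text taken here. If some do not, the p-values measure only the spread between these arrays.

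A growing neurite is led by a growth cone, which reads secreted guidance cues such as netrins and slits through receptors of the DCC, UNC5 and ROBO families. Adhesion molecules of the immunoglobulin superfamily hold it to its substrate, growth-associated proteins such as GAP43 organise its membrane and actin, and stathmin, CRMP and MAP proteins set the dynamics of its microtubules. Most of these genes are known chiefly from neurons. Some, such as Marcks and Stmn1, are widely expressed, and fetal microglia also have processes that grow and retract. In sorted cells, neuronal RNA can come along, so Tubb3, the neuronal class III beta-tubulin, was read beside every member. From these pooled RNAs, fewer cells of a type and less RNA per cell cannot be told apart.

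Promoter sequences were available for 27 of the 41 genes in the RefSeq table used here (build GRCm38.p6). The 250 bases before the transcription start are shown for 5 genes that stand for the patterns below. Ptn, Map1b and Nrcam moved with Tubb3 across the arrays by the rule given below. Ntrk2 stood among the members with the widest LPS minus PBS difference. Basp1 was bright on every array. Capitals mark matches, on either strand, to 4 short motifs known from promoters. The GC box was searched as GGGCGG, while the CCAAT box was searched by the letters of its name. The TATA box was searched as TATAAA, and as an example of the E-box family the letters CAGCTG were used.
Ptn: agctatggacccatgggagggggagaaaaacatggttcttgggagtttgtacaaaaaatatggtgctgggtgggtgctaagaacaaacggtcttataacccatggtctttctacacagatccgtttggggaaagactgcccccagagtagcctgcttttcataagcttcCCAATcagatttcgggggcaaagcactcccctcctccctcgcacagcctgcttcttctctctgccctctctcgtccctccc
Map1b: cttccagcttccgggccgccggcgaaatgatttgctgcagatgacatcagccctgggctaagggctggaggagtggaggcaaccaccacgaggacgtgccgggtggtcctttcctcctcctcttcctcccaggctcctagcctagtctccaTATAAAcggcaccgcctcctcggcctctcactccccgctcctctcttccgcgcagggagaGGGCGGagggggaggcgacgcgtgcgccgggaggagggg
Nrcam: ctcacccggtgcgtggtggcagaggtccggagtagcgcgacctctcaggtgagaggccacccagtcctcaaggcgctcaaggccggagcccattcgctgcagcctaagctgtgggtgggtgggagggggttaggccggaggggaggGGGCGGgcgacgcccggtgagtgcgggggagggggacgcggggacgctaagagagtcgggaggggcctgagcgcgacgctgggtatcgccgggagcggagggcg
Ntrk2: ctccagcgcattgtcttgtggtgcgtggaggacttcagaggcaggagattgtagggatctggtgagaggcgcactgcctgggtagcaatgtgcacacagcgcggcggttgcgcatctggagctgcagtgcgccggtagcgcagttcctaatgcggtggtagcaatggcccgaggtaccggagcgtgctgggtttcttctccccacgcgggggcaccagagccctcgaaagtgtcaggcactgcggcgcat
Basp1: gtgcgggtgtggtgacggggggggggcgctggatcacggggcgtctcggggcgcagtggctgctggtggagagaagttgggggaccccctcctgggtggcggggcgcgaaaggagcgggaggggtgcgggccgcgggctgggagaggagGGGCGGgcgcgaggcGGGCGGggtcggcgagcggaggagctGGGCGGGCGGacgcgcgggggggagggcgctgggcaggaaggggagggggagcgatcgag
The Ptn window is chr6:36810180-36810429 on the minus strand, and Map1b is chr13:99516603-99516852 on the minus strand. Nrcam lies at chr12:44328635-44328884 on the plus strand, Ntrk2 at chr13:58806319-58806568 on the plus strand, and Basp1 at chr15:25413765-25414014 on the minus strand.

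These windows differ in their letters. Basp1 holds 4 matches to GGGCGG, 2 of which overlap, and is 78.8% G and C. Map1b has 1 GC box and 1 TATAAA, Nrcam has 1 GC box, and Ptn has 1 CCAAT and is 52.0% G and C. Ntrk2 holds none of the motifs searched, which says only that these letters are not in this window. Over all 32851 promoter windows of the same length, GGGCGG stood in 32.7%, CCAAT in 33.8%, TATAAA in 12.4% and CAGCTG in 13%. Among the 48 windows of the members the counts were 20 for GGGCGG, 14 for CCAAT, 9 for TATAAA and 7 for CAGCTG. TTCAGCACC, a stretch of the RE1 site bound by REST, a repressor of neuronal genes outside neurons, stood in 0.301% of all windows and in 0 of the 48. A match is a description of the sequence. The arrays hold no measure of binding at these promoters.

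Before the members, the arrays themselves need a description. The 2 PBS arrays of year 2 stood apart from the other 16. The mean of 14 microglia markers, such as Cx3cr1, P2ry12 and Csf1r, was 11.03 and 11.43 on them against 12.42 to 13.61 elsewhere. The mean of the 21 neuron markers on the array was 9.14 and 9.19 against 4.86 to 7.56, and that of 10 progenitor and radial glia markers was 11.32 on both against 6.46 to 9.30. By group, the neuron mean ran from 5.06 to 7.56 in LPS, 5.71 to 9.19 in PBS, 4.92 to 5.51 in DAP12KO and 4.86 to 6.21 in UT. Of those 21 neuron markers, 1 lay under the filter on all arrays. Microglia markers were thus read on all arrays and were lowest on those 2, with neural RNA on all arrays and most on those 2. On PBS replicate 1 of year 2 the progenitor mean, 11.32, stood above the microglia mean, 11.03. The mean of the border macrophage markers named below was 12.35 and 12.07 on PBS replicates 1 and 2 of year 2, above the microglia mean on both. The LPS arrays of year 2 shared this, with 12.81 and 12.54 on replicates 1 and 2 against microglia means of 12.51 and 12.42. Means over different genes do not give shares of cells. The difference of the Gapdh 3' and 5' control probe sets, a sign of RNA quality, was 2.01 to 3.33 on the arrays of years 1 and 2. It was 0.89 to 1.20 on those of year 4 other than UT replicate 2, at 2.23. On UT replicates 3 and 4 of year 3 it was 1.31 and 2.77. The part of cell composition and RNA quality in the results below was not tested beyond the values given beside them.

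**Figure D1:**
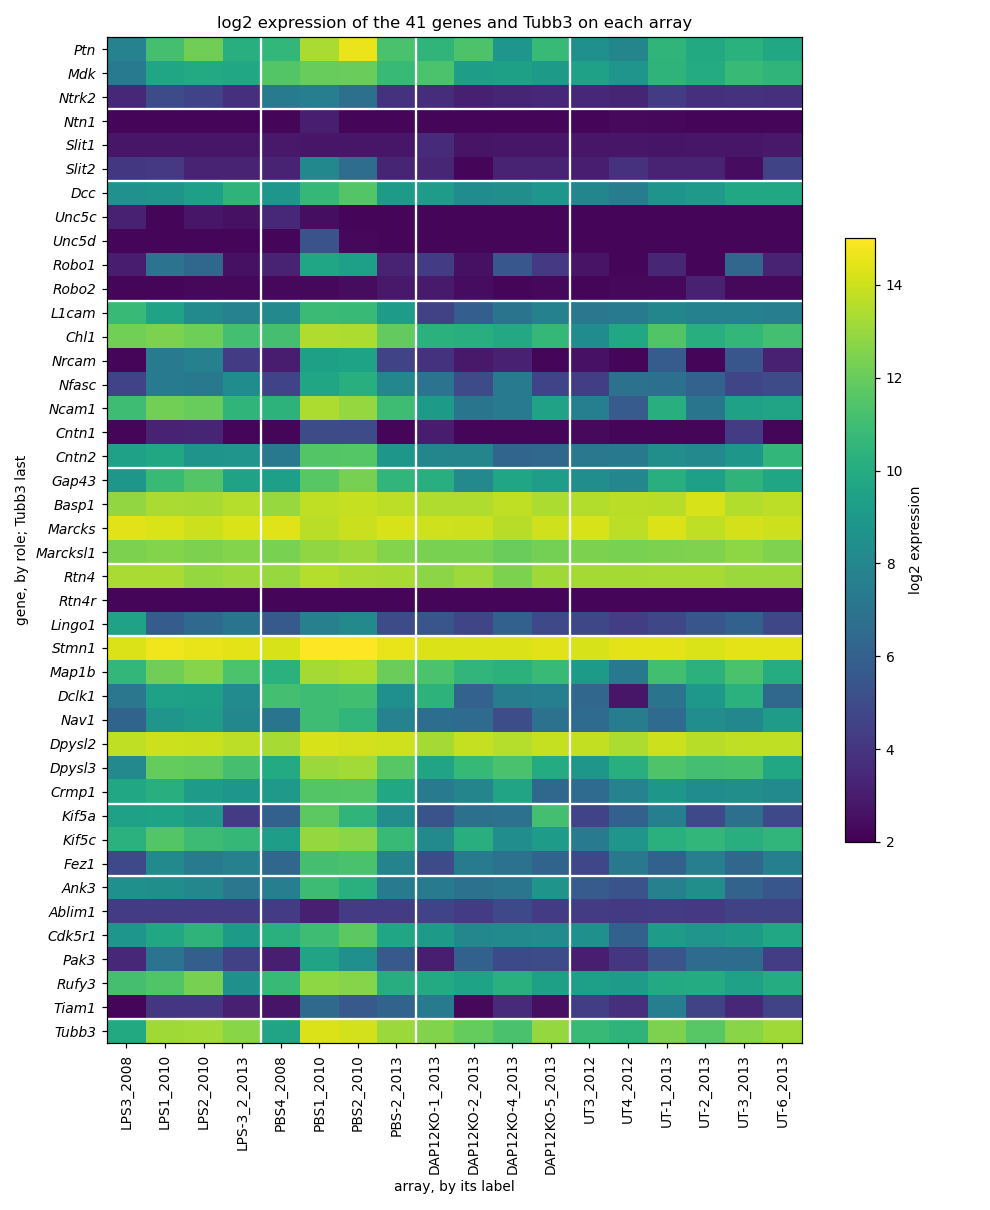
Log2 expression (colour, from 2 in dark to 15 in yellow) of the 41 genes, ordered by role, with Tubb3 in the last line, on each of the 18 arrays, ordered by group and label year. The columns PBS1_2010 and PBS2_2010 are the brightest for most genes, while the lines of Basp1, Marcks, Marcksl1, Rtn4, Stmn1 and Dpysl2 are bright throughout.

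No member passed the test in any comparison. For LPS minus PBS, limma called 0 of the 36 tested members, with 11 of 11630 genes (0.0946%) called in all. The direction leaned one way. A total of 33 of the 36 members stood lower in LPS, where 57.5% of all tested genes did, and the median difference over the members was −0.82 on the log2 scale, against −0.12 over all genes. At an unadjusted p under 0.05, 7 members were lower (background 8.98%) and 0 were higher (background 3.47%).

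That lean was widest with the PBS arrays of year 2. Those were the 2 highest of all 18 arrays for 26 of the 36 members, a pattern seen in 12.2% of all tested genes. Year by year, the median LPS minus PBS difference over the members was 0.028 in year 1, −1.73 in year 2 and −0.23 in year 4. Over all genes these medians were 0.00, −0.11 and −0.064. By count, 15, 33 and 30 of the 36 members stood lower in LPS in years 1, 2 and 4. Of the 11630 genes, 5596, 6579 and 6281 did, so in year 4 most members were lower too, by small amounts at the median. Tubb3 itself differed by 0.30, −1.06 and −0.38. Without the PBS arrays of year 2, 21 members stood lower and 15 higher, where 54.9% of all genes were lower, and the median was −0.10. Leaving them out takes year 2 out of the LPS minus PBS comparison. Values without them, here and below, thus rest on 1 array against 1 in each of years 1 and 4. In that fit 4 members had an unadjusted p under 0.05, against 13.4% of all genes, and limma called 0, so both shares were near those of all genes.

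For DAP12KO minus UT, limma called 0 of the 36 members and 0 of 11630 genes (0.0%), with 637 genes at an unadjusted p under 0.05. Of the members, 27 stood lower in DAP12KO, where 47.5% of all genes did, and the median was −0.34 against 0.019 over all genes. At an unadjusted p under 0.05, 3 members were lower (background 2.5%) and 0 higher (background 2.98%). The neuron markers also leaned lower here, by a median of −0.42 over 20 tested markers, and Tubb3 stood lower by 0.30. With the mean of the neuron markers in the fit, the members' median was −0.17. With Tubb3 in the fit instead, Basp1 at −0.30 and Dclk1 at −0.27 stood in the middle of the members' order. Markers of border macrophages, Mrc1, Lyve1, Cd163, Pf4 and F13a1, also stood lower in DAP12KO, 5 of 5 with a median of −1.84 and 3 of them at an unadjusted p under 0.05. Limma called 0 of them. Their mean ran from 8.74 to 9.41 in DAP12KO, 8.97 to 12.20 in UT, 10.32 to 12.81 in LPS and 11.51 to 12.58 in PBS, and none was under the filter on all arrays. The part of these markers in the members' lean was not tested.

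The difference between the responses, LPS minus PBS less DAP12KO minus UT, was tested in the same limma fit and gave 0 called members and 0 called genes (0.0%). Ptn, Mdk and Ntrk2 were the 3 members lower at an unadjusted p under 0.05, where the background was 5.79%, and 0 members were higher (background 2.32%). The difference was below 0 for 24 of the 36 members, against 57.7% of all genes. A total of 26 members stood lower in both comparisons. With 33 and 27 of the 36 lower in the comparisons taken singly, a large overlap was fixed by those counts. It is not read as a shared response.

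**Figure D2:**
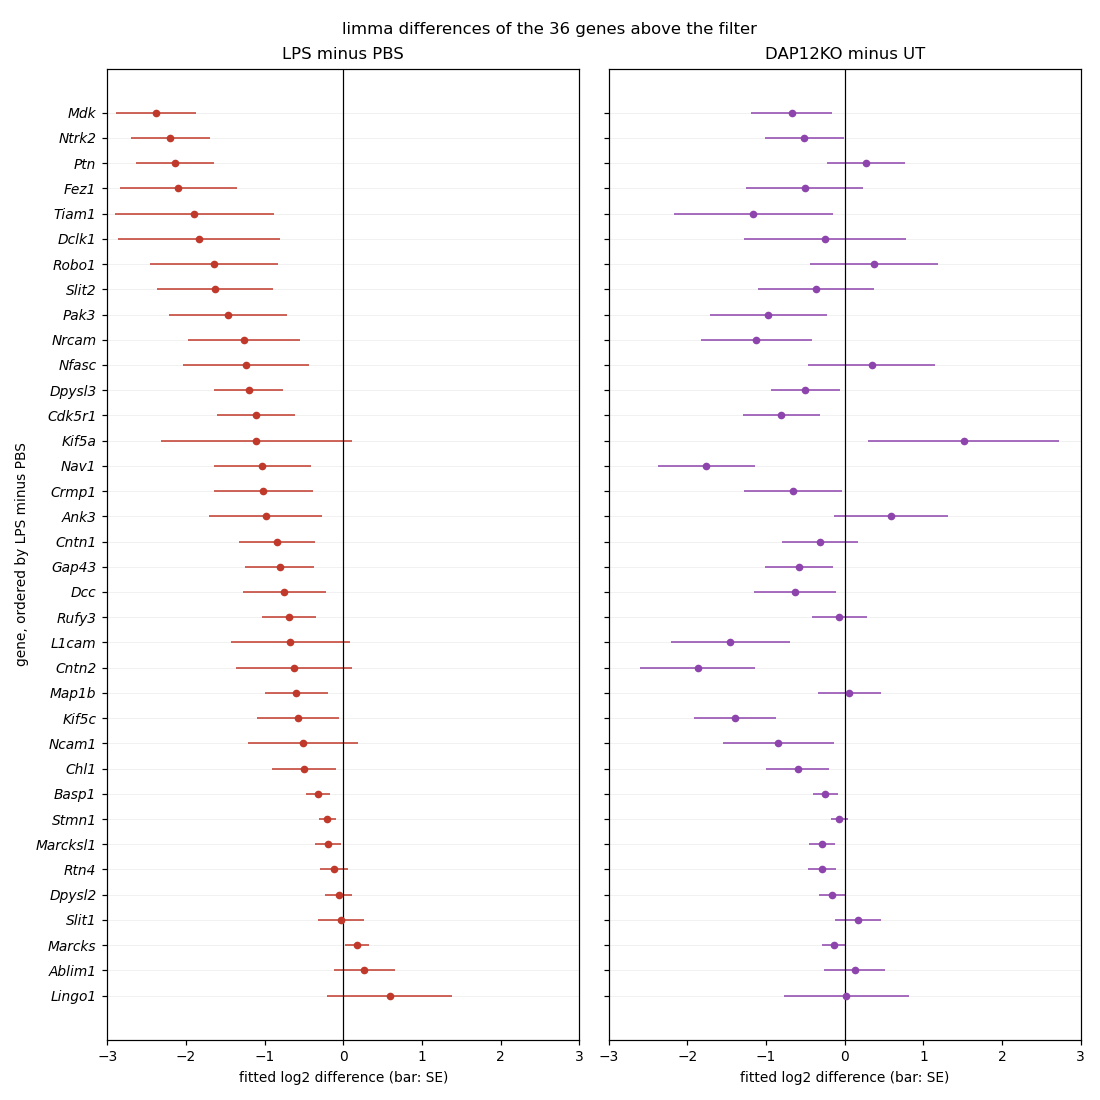
Fitted log2 differences (points) with their standard errors (bars) for LPS minus PBS on the left and DAP12KO minus UT on the right, for the 36 tested genes, ordered by the first. On the left 33 points lie below 0, with Mdk, Ntrk2 and Ptn lowest, and on the right 27 do.

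Ptn and Mdk encode pleiotrophin and midkine, heparin-binding growth factors that promote neurite outgrowth, and Ntrk2 encodes TrkB, the receptor of BDNF. They had the 3 lowest p-values of the members for LPS minus PBS. In the values that follow, LPS and PBS are given as the array of year 1, then replicates 1 and 2 of year 2, then the array of year 4. DAP12KO values are replicates 1, 2, 4 and 5, UT values of year 4 are replicates 1, 2, 3 and 6, and the 6 UT arrays of both years are given as lowest, median and highest. All are log2 levels.

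Mdk read 7.36, 9.69, 9.97 and 9.77 in LPS and 11.50, 12.004, 12.02 and 10.77 in PBS. It read 11.30, 9.23, 9.39 and 9.08 in DAP12KO and 8.80, 10.22 and 10.75 in UT. All 4 LPS arrays lay below all 4 PBS arrays, with the LPS array of year 1 lowest of the 18. Mdk was the only member with that separation (1 of 36, against 1.36% of all genes). The fitted LPS minus PBS difference was −2.38 ± 0.51 (SE), or 5.19-fold lower, with a limma adjusted p of 0.0998. Within years the difference was −4.14 in year 1, −2.18 in year 2 and −0.997 in year 4. Without the PBS arrays of year 2 it was −2.57. The DAP12KO minus UT difference was −0.68 ± 0.51 (SE) (limma adjusted p = 0.922), and DAP12KO replicate 1 stood above every UT array while the other 3 lay below the UT arrays of year 4.

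Ntrk2 read 3.52, 4.95, 4.62 and 3.78 in LPS and 7.38, 7.56, 6.80 and 3.90 in PBS, against 3.65, 3.15, 3.34 and 3.52 in DAP12KO and 3.34, 3.78 and 4.24 in UT. The PBS arrays of years 1 and 2 were high, and that of year 4 lay within the range of LPS and UT. The difference was −2.195 ± 0.50 (SE) (limma adjusted p = 0.119), −3.87 in year 1, −2.40 in year 2 and −0.12 in year 4, and −1.99 without the PBS arrays of year 2. Ntrk2 has 8 probe sets, and as their mean the difference was −0.72. All 4 DAP12KO arrays lay below the UT arrays of year 4, at 4.24, 3.78, 3.91 and 3.78, with a difference of −0.51 ± 0.50 (SE) (limma adjusted p = 0.94). The 3 members with that separation were Ntrk2, Cntn2 and Marcksl1, 8.33% of the 36 against 1.18% of all genes, and 0 members lay wholly above UT (1.2% of all genes). For Ntrk2 it lies among low values that repeat, with one value, 3.78, on UT replicates 2 and 6 and the LPS array of year 4. Its UT arrays of year 3, at 3.52 and 3.34, lay within the DAP12KO range.

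Ptn read 7.75, 11.17, 12.20 and 10.17 in LPS and 10.62, 13.35, 14.62 and 11.26 in PBS, 10.53, 11.36, 8.85 and 10.79 in DAP12KO and 7.91, 9.84 and 10.49 in UT. Each PBS array was higher than the LPS arrays of its year, and the groups overlapped across years. The difference was −2.14 ± 0.50 (SE) (limma adjusted p = 0.121), −2.87, −2.30 and −1.09 in years 1, 2 and 4, and −1.98 without the PBS arrays of year 2. As the mean of its 3 probe sets it was −0.91. DAP12KO minus UT was 0.27 ± 0.50 (SE), with overlap.

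Calls on these genes depended on the arrays and weights used. Without the LPS array of year 4, Mdk fell by 2.83 (limma adjusted p = 0.0315) and Ntrk2 fell by 2.89 (0.00884). Without the PBS array of year 4 instead, the differences were the same, with adjusted p of 0.0323 and 0.00855. Leaving out either array takes year 4 out of this comparison, so these are not separate results. Those fits called 119 and 120 of 11630 genes. With limma array weights, Ptn, Mdk, Ntrk2, Slit2 and Fez1 passed, with adjusted p of 0.00647, 0.00478, 0.0057, 0.0133 and 0.0235. That fit called 826 of 11630 genes. In year 1, Mdk, Dclk1, Ntrk2 and Ptn stood lower in LPS, with Dclk1 at −3.93. There Tubb3 was higher in LPS, whereas the mean of the neuron markers was 5.06 in LPS and 5.71 in PBS and that of the progenitor markers 7.26 and 7.61. Each of these values rests on 1 array against 1.

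The guidance ligands Slit1 and Slit2, repellents that act on ROBO receptors, and Ntn1, netrin-1, a cue for DCC, were at low levels. Ntn1 read 3.09 on PBS replicate 1 of year 2 and lay under the filter, log2 2.49, on every other array. Slit1 read 2.78, 2.78, 2.78 and 2.78 in LPS, 2.91, 2.78, 2.78 and 2.78 in PBS, 3.60, 2.69, 2.78 and 2.78 in DAP12KO and 2.75, 2.78 and 2.87 in UT. All but a few arrays gave Slit1 the same value, with DAP12KO replicate 1 highest, and the LPS minus PBS difference was −0.032 ± 0.29 (SE). Slit2 read 4.11, 4.18, 3.22 and 3.22 in LPS and 3.22, 8.06, 6.63 and 3.33 in PBS, 3.42, 2.19, 3.22 and 3.22 in DAP12KO and 2.42, 3.22 and 4.66 in UT. It was high on the PBS arrays of year 2 alone, with no such height on those of years 1 and 4. Its difference of −1.63 ± 0.73 (SE) (limma adjusted p = 0.377) was 0.39 without them.

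Of the guidance receptors, Dcc and Robo1 were tested. Dcc, the netrin receptor, read 8.56, 8.74, 9.36 and 10.45 in LPS, 8.82, 10.65, 11.52 and 9.10 in PBS, 9.17, 8.34, 8.41 and 8.82 in DAP12KO and 7.53, 8.87 and 9.80 in UT. PBS was higher in years 1 and 2 and lower in year 4, so the fitted −0.75 ± 0.53 (SE) (limma adjusted p = 0.588) became 0.54 without the PBS arrays of year 2. Robo1, a slit receptor, read 2.98, 6.97, 6.37 and 2.59 in LPS and 3.24, 9.65, 9.35 and 3.24 in PBS, 4.33, 2.59, 5.55 and 4.14 in DAP12KO and 2.19, 2.96 and 6.29 in UT. All 4 arrays of year 2, LPS and PBS alike, stood above every other array for Robo1, and the difference was −1.64 ± 0.82 (SE), or −0.45 without the PBS arrays of year 2. Unc5c, Unc5d and Robo2, further netrin and slit receptors, stayed under the filter on average. Unc5c reached 3.46 on the PBS array of year 1 and 3.17 on the LPS array of year 1, Unc5d reached 5.30 on PBS replicate 1 of year 2, and Robo2 reached 3.22 on UT replicate 2 of year 4.

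The 7 adhesion molecules all stood lower in LPS, with a median of −0.67, where 57.5% of all genes were lower. In DAP12KO 6 of 7 stood lower, with a median of −0.84, against 47.5% of all genes. By year, LPS was lower for 1 of the 7 in year 1, 7 in year 2 and 6 in year 4. The medians by year were 0.54, −1.93 and −0.37. L1cam, the founding member of the L1 family that carries axon bundling and growth, read 10.80, 9.50, 8.19 and 7.77 in LPS and 8.13, 10.86, 10.76 and 9.20 in PBS. It read 4.57, 5.90, 7.01 and 7.69 in DAP12KO against 7.95, 7.74, 7.74 and 7.57 in UT of year 4, and 7.15, 7.66 and 7.95 over all UT arrays. DAP12KO replicate 1 was the lowest of the 18 arrays, replicates 2 and 4 also lay below all UT arrays, and replicate 5 lay within the UT range. The DAP12KO minus UT difference was −1.46 ± 0.76 (SE) (limma adjusted p = 0.908). LPS minus PBS turned from 2.67 in year 1 to −1.96 in year 2 and −1.43 in year 4.

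Cntn2, or TAG-1, a GPI-anchored adhesion molecule of early axons, read 9.41, 9.79, 8.74 and 8.80 in LPS and 7.26, 11.52, 11.57 and 8.90 in PBS. It read 7.98, 7.94, 6.26 and 6.41 in DAP12KO against 8.43, 8.14, 8.88 and 10.62 in UT of year 4, with 7.21, 8.29 and 10.62 over all UT arrays. UT replicate 6 was the highest untreated array, and all 4 DAP12KO arrays lay below the 4 UT arrays of year 4. They overlapped with the UT arrays of year 3. That difference was −1.87 ± 0.74 (SE) (limma adjusted p = 0.854). For LPS it was −0.63 ± 0.74 (SE), and 1.02 without the PBS arrays of year 2.

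Nrcam and Nfasc are L1-family members of the axon, its initial segment and nodes, and Cntn1 is a contactin. All 3 were highest on the PBS arrays of year 2. Nrcam read 2.203, 7.37, 7.70 and 4.31 in LPS, 3.02, 9.37, 9.56 and 4.68 in PBS, 3.89, 2.87, 3.20 and 2.203 in DAP12KO and 2.19, 2.91 and 5.79 in UT. Its 4 arrays of year 2 stood above all others, and LPS was lower than PBS in each year, with −1.26 ± 0.71 (SE) in the fit (limma adjusted p = 0.478). Nfasc ran from 4.39 to 10.21 over all arrays, and its LPS minus PBS difference was −1.24 ± 0.81 (SE). Cntn1 ran from 2.19 to 4.99 and was near the floor of the array on most arrays other than those of year 2 and UT replicate 3 of year 4, at 4.28. Its difference was −0.84 ± 0.48 (SE).

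Chl1, the close homologue of L1, ran from 8.34 to 13.46, and Ncam1, the neural cell adhesion molecule, from 5.73 to 13.39. Their LPS minus PBS differences were −0.50 ± 0.41 (SE) and −0.51 ± 0.70 (SE), and in DAP12KO minus UT they were −0.60 ± 0.41 (SE) and −0.84 ± 0.70 (SE), none past the threshold. In year 1 both stood higher in LPS, by 1.05 and 0.54, and in year 2 the differences were −1.14 and −1.06.

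Among the growth cone membrane proteins, Basp1, Marcks and Marcksl1, which bind membrane phosphoinositides and actin and are known beyond neurons, were bright on every array. Marcks read 14.40, 14.25, 13.99 and 14.24 in LPS, 14.35, 13.66, 13.98 and 14.20 in PBS, 14.04, 14.02, 13.62 and 14.06 in DAP12KO and 13.72, 14.10 and 14.32 in UT. It was the 1 member of 36 (background 8.23%) higher in LPS in each of the 3 years, by 0.057, 0.30 and 0.039, and its PBS array of lowest level was replicate 1 of year 2. The fitted difference was 0.17 ± 0.16 (SE) (limma adjusted p = 0.692), within the overlap of the groups.

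Marcksl1 read 12.37, 12.41, 12.03 and 12.27 in DAP12KO against 12.45, 12.48, 12.81 and 12.48 in UT of year 4. With 12.44, 12.60, 12.45 and 12.59 in LPS, 12.38, 12.83, 13.04 and 12.60 in PBS and 12.40, 12.47 and 12.81 over all UT arrays, it varied little. DAP12KO replicate 4 was the lowest of the 18 arrays, UT replicate 3 the highest of its group, and the DAP12KO minus UT difference was −0.29 ± 0.16 (SE) (limma adjusted p = 0.908). Basp1 ran from 12.89 to 14.21, with LPS minus PBS at −0.32 ± 0.15 (SE) and DAP12KO minus UT at −0.24 ± 0.15 (SE).

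Gap43, the growth-associated protein of regenerating axons, read 8.88, 10.75, 11.54 and 9.47 in LPS and 9.33, 11.62, 12.36 and 10.57 in PBS, 10.21, 8.12, 9.72 and 9.22 in DAP12KO and 8.02, 9.50 and 10.44 in UT. It was lower in LPS than in PBS of the same year in all 3 years, with −0.81 ± 0.43 (SE) in the fit (limma adjusted p = 0.453), and the difference was −1.10 in year 4 alone. In DAP12KO the difference was −0.58 ± 0.43 (SE), with overlap. Gap43 had been chosen by name, and its level moved with that of Tubb3 across the arrays.

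The inhibitors of outgrowth, Nogo (Rtn4), its receptor (Rtn4r) and the co-receptor Lingo1, did not move together. Rtn4 read 13.33, 13.33, 12.96 and 13.09 in LPS, 12.99, 13.53, 13.37 and 13.28 in PBS, 12.76, 13.12, 12.45 and 13.16 in DAP12KO and 13.03, 13.24 and 13.28 in UT. The PBS arrays of year 2 gave the 2 highest values. The groups overlapped except that 2 DAP12KO arrays lay below all UT arrays, and the differences were −0.11 ± 0.18 (SE) for LPS and −0.29 ± 0.18 (SE) for DAP12KO. Rtn4 has 5 probe sets, and the r of the other 4 with the one used ran from −0.26 to 0.36. Rtn4r stood at or within rounding of the lowest value, 2.19, on all 18 arrays.

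Lingo1 read 9.52, 5.79, 6.43 and 7.07 in LPS, 5.69, 7.65, 8.11 and 4.99 in PBS, 5.49, 4.72, 6.04 and 4.85 in DAP12KO and 4.35, 4.80 and 6.04 in UT. The LPS array of year 1 was its highest and the PBS arrays of year 2 came next. LPS minus PBS was 3.83 in year 1, −1.77 in year 2 and 2.07 in year 4, and the fitted 0.59 ± 0.79 (SE) became 2.95 (limma adjusted p = 0.181) without the PBS arrays of year 2. As the mean of its 2 probe sets it was −0.043.

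All 7 microtubule and CRMP genes stood lower in LPS, with a median of −1.01, where 57.5% of all genes were lower. In DAP12KO 6 of 7 stood lower, with a median of −0.25, against 47.5% of all genes. LPS was lower for 3 of the 7 in the earliest year, 7 in year 2 and 6 in the latest year. The medians in that order were 0.12, −1.25 and −0.33. Stmn1, stathmin, which destabilises microtubules in dividing cells and neurons alike, read 14.32, 14.70, 14.55 and 14.45 in LPS, 14.20, 15.05, 15.03 and 14.54 in PBS, 14.30, 14.30, 14.34 and 14.44 in DAP12KO and 14.22, 14.46 and 14.48 in UT. The PBS arrays of year 2 were the highest, and the difference was −0.20 ± 0.11 (SE), or 0.011 without them. Dpysl2, or CRMP2, which binds tubulin, was also bright, from 13.23 to 14.23, with LPS minus PBS at −0.058 ± 0.17 (SE).

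Dpysl3, or CRMP4, read 8.11, 11.95, 11.80 and 11.15 in LPS and 9.96, 13.06, 13.18 and 11.60 in PBS, 9.58, 10.68, 11.28 and 9.99 in DAP12KO and 8.87, 10.65 and 11.40 in UT. LPS was lower in every year, with differences of −1.85, −1.25 and −0.45 and overlap across years. The fit gave −1.20 ± 0.44 (SE) (limma adjusted p = 0.274), and −1.15 without the PBS arrays of year 2. DAP12KO minus UT was −0.50 ± 0.44 (SE). Crmp1, a further family member, ran from 6.34 to 11.55 and differed by −1.01 ± 0.62 (SE) with LPS and −0.65 ± 0.62 (SE) with DAP12KO.

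Nav1, a neuron navigator that binds microtubule plus ends, had the lowest p of the members for DAP12KO minus UT. It read 6.68, 6.53, 5.07 and 6.86 in DAP12KO against 6.55, 8.37, 8.07 and 9.19 in UT of year 4. In LPS it read 6.18, 8.77, 9.19 and 8.09, in PBS 7.05, 10.94, 10.57 and 7.79, and 6.52, 7.80 and 9.19 over all UT arrays. UT replicate 1, at 6.55, lay within the DAP12KO range, and the other 3 UT arrays of year 4 lay above it. The difference was −1.76 ± 0.62 (SE) (limma adjusted p = 0.793), and −0.74 as the mean of its 4 probe sets.

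Map1b, a microtubule-associated protein of growing axons, read 10.58, 12.17, 12.66 and 11.30 in LPS, 10.32, 13.23, 13.42 and 12.10 in PBS, 11.32, 10.53, 10.37 and 10.75 in DAP12KO and 7.24, 10.22 and 11.26 in UT. LPS minus PBS was 0.26 in year 1, −0.91 in year 2 and −0.81 in year 4. Dclk1, doublecortin-like kinase, ran from 2.80 to 11.11 over the arrays, and its untreated arrays alone spanned 2.80, 6.69 and 10.29. Its LPS minus PBS difference was −1.84 ± 1.03 (SE) and its DAP12KO minus UT difference −0.25 ± 1.03 (SE).

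Of the transport genes, Kif5a and Kif5c encode neuronal kinesin-1 heavy chains and Fez1 an adaptor of kinesin-1. Kif5c read 8.17, 10.19, 8.39 and 9.20 in DAP12KO against 10.23, 10.58, 10.16 and 10.55 in UT of year 4, with 7.33, 10.19 and 10.58 over all UT arrays. It read 10.29, 11.52, 10.90 and 10.67 in LPS and 9.21, 12.94, 12.73 and 10.79 in PBS. DAP12KO replicate 2 lay just above the lowest UT array of year 4, the other 3 lay below it, and the UT arrays of year 3 lay in the DAP12KO range or under it. DAP12KO minus UT was −1.39 ± 0.52 (SE) (limma adjusted p = 0.814), and LPS minus PBS was −0.57 ± 0.52 (SE), or 0.47 without the PBS arrays of year 2.

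Fez1 read 4.88, 8.17, 7.43 and 7.67 in LPS and 6.29, 11.14, 11.29 and 7.81 in PBS, 4.97, 7.43, 6.86 and 6.18 in DAP12KO and 4.75, 6.75 and 7.59 in UT. The PBS arrays of year 2 stood far above the rest, of which the highest read 8.17. The difference of −2.10 ± 0.74 (SE) (limma adjusted p = 0.266) was −0.78 without them. Kif5a read 9.45, 9.52, 9.01 and 4.24 in LPS and 6.02, 11.74, 10.52 and 8.36 in PBS, and 5.39, 6.81, 6.89 and 11.10 in DAP12KO, where replicate 5 stood far above the others. Its LPS minus PBS difference went from 3.42 in year 1 to −1.86 in year 2 and −4.11 in year 4.

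Among scaffold, actin and kinase genes, Ablim1 encodes an actin-binding LIM protein. It read 4.26, 4.26, 4.26 and 4.26 in LPS, 4.26, 3.13, 4.26 and 4.32 in PBS, 4.63, 4.26, 4.86 and 4.26 in DAP12KO and 4.18, 4.26 and 4.56 in UT. Most arrays shared one value, PBS replicate 1 of year 2 was lowest, and the LPS minus PBS difference was 0.27 ± 0.39 (SE), against −0.69 as the mean of its 4 probe sets. Cdk5r1, which encodes p35, the activator of CDK5, read 8.85, 9.80, 10.46 and 9.10 in LPS and 10.23, 10.99, 11.72 and 9.70 in PBS, 9.10, 8.04, 8.16 and 8.26 in DAP12KO and 6.02, 8.95 and 9.75 in UT. LPS was lower in each year, with −1.11 ± 0.49 (SE) in the fit (limma adjusted p = 0.37) and −0.99 without the PBS arrays of year 2.

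Tiam1, an exchange factor for RAC, read 2.19, 4.08, 4.06 and 3.14 in LPS and 2.72, 6.50, 5.65 and 6.16 in PBS, with differences of −0.53, −2.01 and −3.02 by year. It varied as widely among untreated arrays, from 3.47 to 7.54, and the fitted difference was −1.89 ± 1.01 (SE) (limma adjusted p = 0.453). Ank3, ankyrin-G of the axon initial segment, ran from 5.33 to 10.92, Pak3, a kinase downstream of RAC and CDC42, from 3.07 to 9.57, and Rufy3, which acts in axon formation, from 8.52 to 12.77. Their LPS minus PBS differences were −0.99 ± 0.72 (SE), −1.46 ± 0.75 (SE) and −0.69 ± 0.34 (SE), and all 3 had their highest values on the PBS arrays of year 2.

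Lower in LPS than in PBS in all 3 years were 12 of the 36 members, against 15.7% of all tested genes. In years 1 and 4 alone it was 12 as well, against 27.2%. They were Ptn, Mdk, Ntrk2, Robo1, Nrcam, Gap43, Basp1, Dclk1, Dpysl3, Fez1, Cdk5r1 and Tiam1. The DAP12KO minus UT differences of these 12 ran from −1.16 for Tiam1 to 0.37 for Robo1. The 2 comparisons share no arrays, but share the estimate of spread in the fit.

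**Figure D3:**
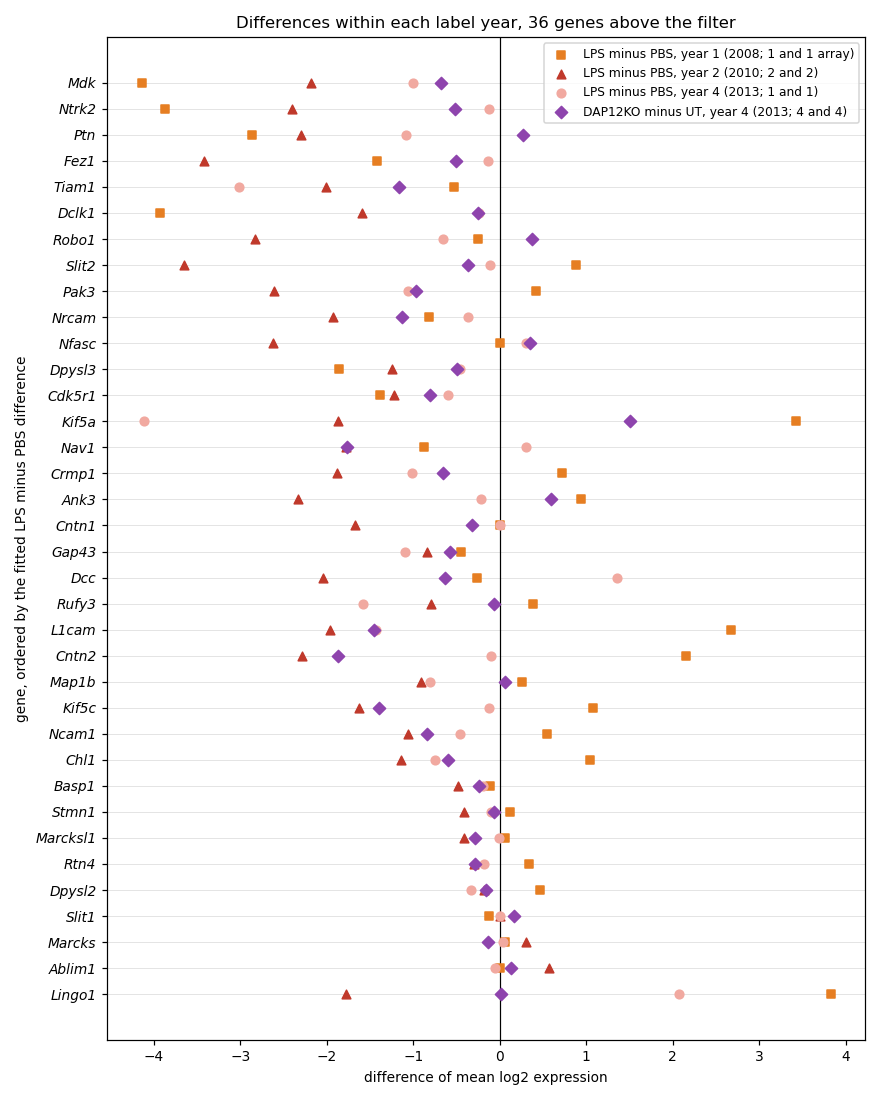
Difference of mean log2 expression for each of the 36 tested genes, LPS minus PBS in years 1, 2 and 4 and DAP12KO minus UT in year 4, ordered by the fitted LPS minus PBS difference. The triangles of year 2 lie left of 0 for 33 genes, the squares of year 1 for 15 and the circles of year 4 for 30. Of all 11630 tested genes, 6579, 5596 and 6281 were lower in LPS in years 2, 1 and 4.

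Across the 18 arrays Tubb3 ranged from 9.59 to 14.30. It read 9.89, 13.12, 13.18 and 12.67 in LPS, 9.59, 14.30, 14.12 and 13.05 in PBS, 12.54, 11.90, 11.28 and 12.95 in DAP12KO and 10.47, 12.03 and 13.13 in UT. The arrays of year 1 were lowest and the PBS arrays of year 2 highest, so a correlation with Tubb3 is largely a contrast between those arrays and is given as a description, without a test. A member was marked as following Tubb3 at a Pearson r of 0.7 or more over all 18 arrays and again without the 2 arrays farthest from the median of Tubb3, both of year 1. It was marked as not following at an r under 0.4 both times.

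By this rule 7 of the 36 tested members followed Tubb3 (background 0.903%). Their r over 18 arrays and Spearman's rho were 0.77 and 0.70 for Ptn, 0.72 and 0.74 for Dcc, 0.74 and 0.76 for Nrcam and 0.76 and 0.79 for Gap43. For Stmn1 they were 0.76 and 0.82, for Map1b 0.75 and 0.76 and for Nav1 0.70 and 0.78. Without the arrays of year 1, r over the remaining 16 arrays was 0.87 for Ptn, 0.89 for Map1b and 0.84 for Gap43. Without the PBS arrays of year 2, 0 members met the rule (background 0.146%), with r of 0.68 for Ptn, 0.69 for Stmn1 and 0.65 for Gap43. Over the 10 arrays of year 4 alone 2 members did, Stmn1 and Ncam1, with r of 0.78 and 0.85. Of the 7, those besides Stmn1 had r from 0.33 to 0.56 there.

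Not following Tubb3 were 4 tested members, against 72.7% of all genes. These were Slit1 at r = 0.0096, Marcks at −0.21, Rtn4 at 0.24 and Ablim1 at −0.29. Slit1 and Ablim1 had the same value on most arrays, so their r says little, whereas Marcks and Rtn4 were bright with a narrow range. Over the arrays of year 4 alone the r of Marcks was 0.74, among the highest 4 of the tested members. Without the 2 of those arrays farthest from their median of Tubb3, the r of Marcks was 0.026. Of the untested members, Ntn1, Unc5c and Robo2 also stood under 0.4 and Rtn4r could not be set against Tubb3. The remaining 25 tested members lay between, among them Mdk at 0.54, Ntrk2 at 0.27 and Basp1 at 0.44. Without the arrays of year 1 these became 0.74, 0.75 and −0.049, and Ncam1 at 0.92, Chl1 at 0.90 and Cdk5r1 at 0.87 were as high as the members that met the rule. The sets thus depend on the 2 arrays of year 1.

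A slope on Tubb3 added to group and year in limma was past the threshold for 0 of 36 members and 0.0% of all genes, with Ncam1 steepest at 1.59 ± 0.35 (SE) (adjusted p = 0.166). With Tubb3 in the fit, the LPS minus PBS difference of Mdk was −2.32, of Ntrk2 −2.199 and of Ptn −1.94. With the mean of the neuron markers instead, those were −2.05, −1.63 and −1.20, and the median over the members was −0.095. The lean thus shrank less with Tubb3 in the fit, where Nav1 at −0.63 and Cntn1 at −0.59 stood in the middle of the members' order.

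**Figure D4:**
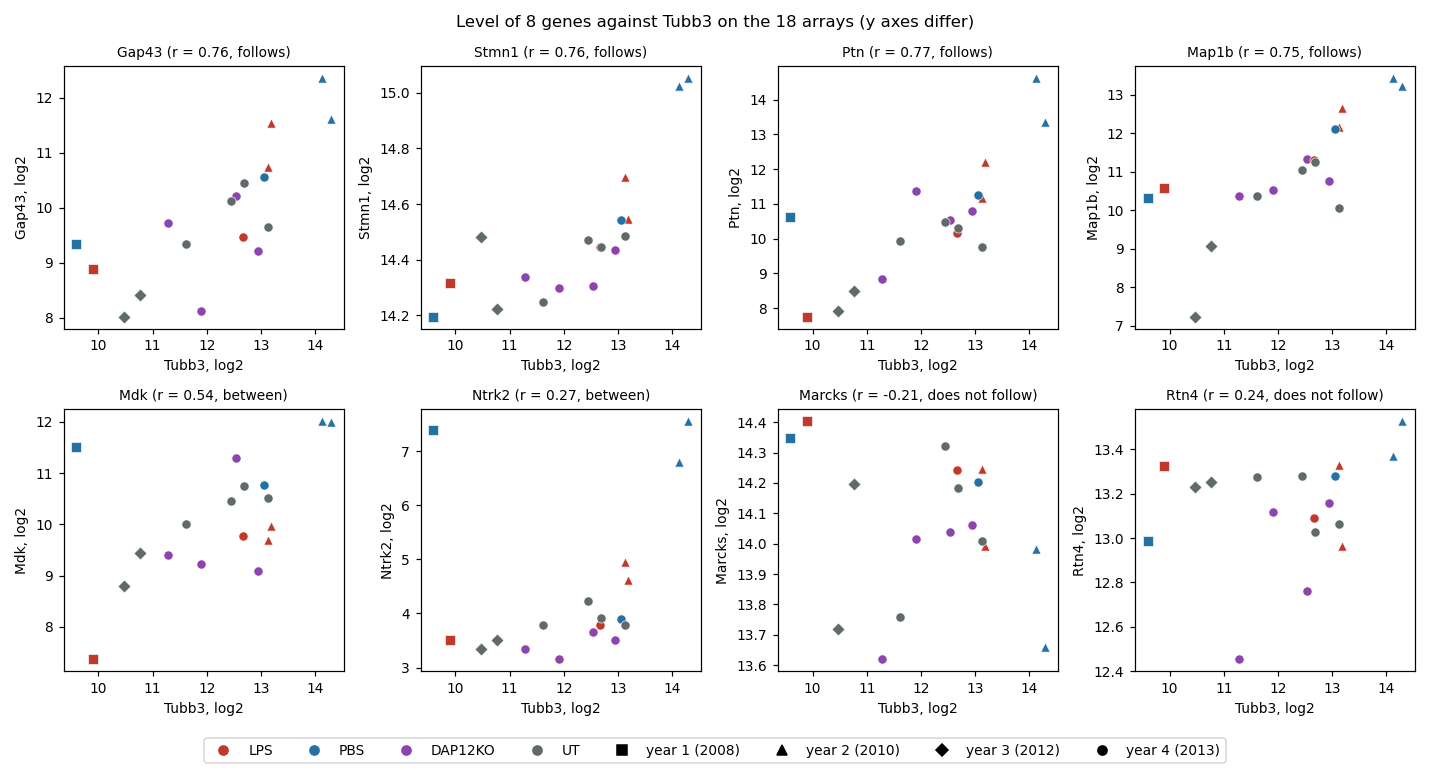
Log2 level of 8 genes (y axes differ) against log2 Tubb3 on the 18 arrays, coloured by group and shaped by label year, with Pearson r in each title. Gap43, Stmn1, Ptn and Map1b lie higher on the PBS triangles of year 2 than on the arrays of low Tubb3. Mdk and Ntrk2 are high on the PBS array of year 1 although its Tubb3 is lowest. Marcks shows no rise with Tubb3, and Rtn4 is also highest on the PBS triangles of year 2, within a narrow range.

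Many members have more than 1 probe set, and the mean of all of them moved further differences by over 1.5 times. For LPS minus PBS that mean was wider for Chl1, at −1.41 (limma adjusted p = 0.092), Dcc at −1.34, Marcksl1 at −0.61, Rtn4 at −0.45, Dpysl2 at −0.29, Dpysl3 at −2.10 and Kif5c at −1.04. It was narrower for Slit2 at −0.53, Robo1 at −0.41, Ank3 at −0.39 and Tiam1 at −0.63. For DAP12KO minus UT it was wider for Rtn4 at −0.69, Dclk1 at −0.46 and Dpysl3 at −1.32, and narrower for L1cam at −0.73, Nrcam at −0.24, Cntn2 at −0.91, Kif5a at 0.48 and Tiam1 at −0.11. In that fit limma called 0 members in either comparison.

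A further list of 60 outgrowth genes, named by their roles, was read beside the members. On the array were 55, and 45 passed the filter. Of these, 38 stood lower in LPS with a median of −0.84, where 57.5% of all genes were lower. LPS was lower for 20 of the 45 in the earliest year, 37 in year 2 and 33 in the latest year. The medians in that order were 0.00, −1.31 and −0.15. In DAP12KO 22 stood lower, 20 higher and 3 at the level of UT, with a median of 0.00, where 47.5% of all genes were lower. None passed the test in either comparison by limma. At an unadjusted p under 0.05, 12 were lower (background 8.98%) and 1 was higher (background 3.47%) for LPS. For DAP12KO 1 was lower (background 2.5%) and 0 were higher (background 2.98%). The lowest p-values for LPS minus PBS belonged to Gprin1, a growth cone protein that binds G proteins, at −3.02 ± 0.78, and Unc5b, a netrin receptor, at −1.14 ± 0.31. Next came Stmn4, a neural stathmin, at −1.22 ± 0.35, and Ncam2, an adhesion molecule, at −1.47 ± 0.45, with limma adjusted p of 0.157, 0.169, 0.181 and 0.216. For DAP12KO minus UT they belonged to Fscn1, the actin bundler fascin, at −1.12 ± 0.27, and the neuronal microtubule proteins Map2 at −1.12 ± 0.57, Mapt (tau) at −1.70 ± 0.88 and Stmn3 at −1.07 ± 0.57. Their limma adjusted p were 0.485, 0.908, 0.908 and 0.908. Of the genes named for LPS minus PBS, Gprin1 and Stmn4 stood lower in LPS in each year. Unc5b and Ncam2 did not differ in the earliest year, and Unc5b, at a mean of 2.62, lay near the filter of 2.49.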

How the data were processed

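Each of the 18 Affymetrix Mouse430_2 arrays gave 45101 log2 values, used as the authors deposited them. The submitters' processing notes name RMA, a method that subtracts background, brings arrays to one distribution and merges the probes of a set. Neither its version nor whether 1 run covered every array is given in the sources used here. Per the labels' protocols, RNA was amplified with Ovation Pico WTA v2. Amplification of small amounts of RNA can widen the spread of dim probe sets.

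Probe sets that named 1 gene (34958) were kept. A gene was read from its probe set of highest mean and tested where that mean reached the 40th percentile (log2 2.49), which left 11630 genes. The fit used limma 3.58.1 (R 4.3.3) on all arrays, with a level for each group plus a term for label year, 11 residual degrees of freedom and a two-sided test. P-values were adjusted by Benjamini-Hochberg over these genes, with a threshold of 0.05. DAP12KO arrays all carry year 4, so that UT arrays of year 4 set their difference. Errors are standard errors of the fit. For arrays, their number limits the precision.

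Values on every array were given for the 5 members with the lowest p in each main comparison and for those not following Tubb3, with others added to describe a role. The members, lists and tests were chosen with earlier results of these data known. Promoter motifs were searched in windows of 250 bases. The fit was tested on simulated data. Alternatives covered the year term, filter, probe set choice, normalization, variance prior, array weights, neural covariates and arrays left out. Python 3.11.15 and matplotlib 3.10.9 drew the figures.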

Additional observations from a re-analysis of the deposited data

Results flagged for a closer look

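Each sample was set against the rest of its group for every tested member. In 18 of 144 such groups the highest or lowest array lay farther from the nearest other array than Dixon's 95% limit allows. The rate of about 1 in 20 behind that limit assumes normal values from 1 source. The LPS, PBS and UT groups mix years, and Slit1, Ablim1 and Cntn1 repeat 1 value on several arrays. That rate is therefore no measure for the 18. All values are log2 levels. The lone low values were these. Mdk read 7.36 on the LPS array of year 1, against 9.69 to 9.97 in the rest of LPS. Slit2 read 2.19 on the DAP12KO replicate 2 of year 4, against 3.22 to 3.42 in the rest of DAP12KO. Basp1 read 13.0003 on the PBS array of year 1, against 13.73 to 13.85 in the rest of PBS. Marcks read 13.62 on the DAP12KO replicate 4 of year 4, against 14.02 to 14.06 in the rest of DAP12KO. Dclk1 read 8.52 on the PBS array of year 4, against 10.95 to 11.11 in the rest of PBS. Kif5a read 4.24 on the LPS array of year 4, against 9.01 to 9.52 in the rest of LPS. Ablim1 read 3.13 on the PBS replicate 1 of year 2, against 4.26 to 4.32 in the rest of PBS. Cdk5r1 read 6.02 on the UT replicate 4 of year 3, against 8.51 to 9.75 in the rest of UT. The lone high values were these. Mdk read 11.30 on the DAP12KO replicate 1 of year 4, against 9.08 to 9.39 in the rest of DAP12KO. Slit1 read 2.91 on the PBS array of year 1, against 2.78 on all others of PBS. Slit1 read 3.60 on the DAP12KO replicate 1 of year 4, against 2.69 to 2.78 in the rest of DAP12KO. Slit1 read 2.87 on the UT replicate 6 of year 4, against 2.75 to 2.78 in the rest of UT. Robo1 read 6.29 on the UT replicate 3 of year 4, against 2.19 to 3.40 in the rest of UT. Cntn1 read 2.97 on the DAP12KO replicate 1 of year 4, against 2.19 to 2.24 in the rest of DAP12KO. Cntn1 read 4.28 on the UT replicate 3 of year 4, against 2.19 to 2.33 in the rest of UT. Basp1 read 14.21 on the UT replicate 2 of year 4, against 13.49 to 13.71 in the rest of UT. Marcksl1 read 12.81 on the UT replicate 3 of year 4, against 12.40 to 12.48 in the rest of UT. Tiam1 read 7.54 on the UT replicate 1 of year 4, against 3.47 to 4.68 in the rest of UT. Of the 18, 1 concerned a PBS array of year 2, which for most members were high together.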

How the results depend on the processing

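Of the members, 0 passed the test in the DAP12KO comparison and in the test of the difference under every alternative run. For LPS minus PBS, 5 passed with limma array weights and 0 to 2 when 1 array was left out. The count of members lower in DAP12KO without overlap ran from 3 to 5 when 1 array was left out. The median LPS minus PBS difference over the members was −1.38 with array weights and −0.095 with the mean of the neuron markers in the fit. It was −0.10 without the PBS arrays of year 2 or without all arrays of year 2. With Tubb3 in the fit, Nav1 at −0.63 and Cntn1 at −0.59 stood in the middle of the members' order. The count following Tubb3 was 2 on the arrays of year 4 alone, 4 after a further quantile normalization, 0 at an r of 0.8 and 0 without the PBS arrays of year 2. Over all genes, LPS minus PBS gave 119 calls without the LPS array of year 4, 120 without the PBS array of year 4 and 826 with array weights, against 11. Quantile normalization moved the share of genes higher in LPS from 42.2% to 48.6%. For the median, the array weights, the neuron covariate and the fit without all arrays of year 2 were added after seeing the data. So were the members' order with Tubb3 in the fit, the Tubb3 count without the PBS arrays of year 2 and the count without overlap with 1 array left out.

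Directions turned for these members, with the values in log2. Without the PBS arrays of year 2, LPS minus PBS turned for Slit2 (0.39), Dcc (0.54), L1cam (0.62), Chl1 (0.15), Nfasc (0.15), Ncam1 (0.044), Cntn2 (1.02), Marcksl1 (0.024), Rtn4 (0.077), Stmn1 (0.011), Dpysl2 (0.066), Kif5c (0.47), Ank3 (0.36) and Ablim1 (−0.029), and with the same values without all arrays of year 2. With the mean of the neuron markers in the fit it turned for Dcc (0.46), Chl1 (0.51), Nrcam (0.38), Ncam1 (1.43), Cntn2 (1.22), Marcksl1 (0.065), Rtn4 (0.14), Stmn1 (0.050), Dpysl2 (0.18), Kif5a (0.19), Kif5c (0.31) and Ablim1 (−0.047). With Tubb3 as a covariate it turned for Slit1 (0.020), Ncam1 (0.37), Cntn2 (0.018) and Dpysl2 (0.023), with the mean of all probe sets for Lingo1 (−0.043) and Ablim1 (−0.69), with quantile normalization for Slit1 (0.0013), and with array weights for Lingo1 (−0.95). DAP12KO minus UT turned with the mean of all probe sets for Ptn (−0.28), Chl1 (0.051), Nfasc (−0.38), Lingo1 (−0.31), Map1b (−0.25) and Ank3 (−0.24), with quantile normalization for Lingo1 (−0.022) and Map1b (−0.0080), with the neuron markers for Slit2 (0.33), Ncam1 (0.026), Cntn1 (0.041), Stmn1 (0.045) and Ablim1 (−0.012), with array weights for Robo1 (−0.00051), Nfasc (−0.16) and Map1b (−0.083), and with no year term for Chl1 (0.0039), Dclk1 (0.95) and Rufy3 (0.12). With 1 array left out at a time, the LPS minus PBS differences that turned ran over these ranges: Ablim1 (−0.018 to 0.44), Dpysl2 (−0.23 to 0.034) and Lingo1 (−0.49 to 1.19). For DAP12KO minus UT they were Cntn1 (−0.51 to 0.21), Dclk1 (−1.09 to 0.46), Lingo1 (−0.24 to 0.28), Map1b (−0.15 to 0.25), Nfasc (−0.099 to 0.80), Ptn (−0.058 to 0.78), Robo1 (−0.16 to 1.21), Rufy3 (−0.23 to 0.061), Slit1 (−0.046 to 0.26) and Slit2 (−0.69 to 0.061). The cause of these turns was not tested. For single members, the neuron markers, array weights, no year term and the fit without all arrays of year 2 were added after seeing the data.

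Same-numbered LPS and PBS arrays of year 2 deviated alike from their group means (r = 0.53), and same-numbered DAP12KO and UT arrays did not (−0.01 and 0.01). The numbers were not taken to pair the samples, and a fit with the replicate number as a block called 0 members and 0 genes in each comparison. Values near the floor have no order, and members under the filter could not be tested.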
